A study of Mus musculus with 6 samples.

Results

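The IFIT family of mouse, the interferon-induced proteins with tetratricopeptide repeats, is followed here through 6 genes, Ifit1, Ifit2, Ifit3, Ifit3b, Ifit1bl1 and Ifit1bl2, taken by gene name from the 54532 genes of a deposited count table. RNA-seq was performed on N9 microglia, an immortalized microglial cell line from mouse brain, in 3 libraries of cells stimulated with lipopolysaccharide (LPS) at 1 µg/ml for 6 h and 3 libraries of non-stimulated control cells. LPS, a glycolipid from the wall of gram-negative bacteria, is sensed through Toll-like receptor 4 (TLR4). The comparison asks how an inflammatory stimulus changes the microglial transcriptome. The cells are a single line, and nothing in the labels says that the 3 libraries of a group came from separate cultures, so that p-values measure the spread between these libraries, which may be technical.

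IFIT proteins are built from repeats of a helix-turn-helix motif and bind RNA and other proteins in the cytosol. Ifit1 binds RNA whose cap lacks the methyl groups of host messages and keeps it from being translated, and IFIT proteins also bind the translation initiation factor eIF3. Type I interferon is known to switch these genes on through ISGF3, a transcription factor complex that includes Stat2 and Irf9 and binds the interferon-stimulated response element (ISRE), while LPS reaches them through TLR4, the adaptor Ticam1 and the factor Irf3, directly and by way of interferon beta.

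The 6 genes lie side by side on chromosome 19 of the mouse build GRCm38 (mm10), within 99.3 kb. In the order of the chromosome they are Ifit2 (ENSMUSG00000045932, from 34550694 to 34576419, plus strand), Ifit3 (ENSMUSG00000074896, from 34583531 to 34588731, plus strand), Ifit1bl1 (ENSMUSG00000079339, from 34592888 to 34601968, minus strand), Ifit3b (ENSMUSG00000062488, from 34607970 to 34613401, plus strand), Ifit1bl2 (ENSMUSG00000067297, from 34617049 to 34640743, minus strand) and Ifit1 (ENSMUSG00000034459, from 34640871 to 34650009, plus strand). All are annotated as protein-coding, and none shares exonic bases with another gene in GENCODE release M21. Ifit1bl2 and Ifit1 start 128 bases apart and point away from each other.

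The promoters of the family are shown because the members moved together, and because the ISRE is the element through which interferon is known to reach them. Each line holds the 220 bases before the RefSeq start site nearest to the annotated gene start, 5′ to 3′ on the strand of the gene, from RefSeq's GRCm38.p6, and capitals mark matches to the ISRE core, which was spelled GAAANNGAAA and sought on both strands. The regions are chr19:34550474-34550693 (plus strand) for Ifit2, chr19:34583309-34583528 (plus) for Ifit3, chr19:34607737-34607956 (plus) for Ifit3b, chr19:34601969-34602188 (minus) for Ifit1bl1 and chr19:34640669-34640888 (plus) for Ifit1.
Ifit2: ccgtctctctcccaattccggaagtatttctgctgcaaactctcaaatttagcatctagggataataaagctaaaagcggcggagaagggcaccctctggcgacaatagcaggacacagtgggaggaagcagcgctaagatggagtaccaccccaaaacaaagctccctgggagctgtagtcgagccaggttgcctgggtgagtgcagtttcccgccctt
Ifit3: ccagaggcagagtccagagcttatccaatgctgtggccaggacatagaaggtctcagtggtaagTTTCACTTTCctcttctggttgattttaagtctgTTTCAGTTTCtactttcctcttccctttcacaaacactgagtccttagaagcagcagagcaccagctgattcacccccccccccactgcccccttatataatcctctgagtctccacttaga
Ifit3b: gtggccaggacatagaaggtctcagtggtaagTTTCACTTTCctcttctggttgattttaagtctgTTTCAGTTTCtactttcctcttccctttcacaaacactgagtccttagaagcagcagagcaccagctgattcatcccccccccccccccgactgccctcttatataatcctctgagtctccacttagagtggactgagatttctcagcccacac
Ifit1bl1: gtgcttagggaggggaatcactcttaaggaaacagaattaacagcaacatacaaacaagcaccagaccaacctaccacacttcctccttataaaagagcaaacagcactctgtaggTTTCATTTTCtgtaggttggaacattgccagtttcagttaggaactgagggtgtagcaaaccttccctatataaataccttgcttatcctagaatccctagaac
Ifit1: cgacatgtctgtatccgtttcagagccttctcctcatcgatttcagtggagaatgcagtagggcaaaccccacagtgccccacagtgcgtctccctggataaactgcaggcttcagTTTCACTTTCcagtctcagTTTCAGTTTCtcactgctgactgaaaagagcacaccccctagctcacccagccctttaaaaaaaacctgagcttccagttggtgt
Windows of 300 bases, from 250 before to 50 after a start, were searched for all 6 members and for all 32817 RefSeq windows of the genome. Of all windows, 3.43% held at least 1 match and 0.222% held 2 or more. Ifit3 had 2 matches, which began at positions -156 and -122 from the start base, counted as 0. Ifit3b also had 2, at -188 and -154. Ifit1 had 2, at -104 and -85, and because its window and that of Ifit1bl2 overlap by 245 bases, the same 2 matches lie at -51 and -70 of Ifit1bl2. Ifit1bl1 had 1 match at -104, and another at -23 of its second RefSeq start. Ifit2 had no match, neither in the window shown nor in that of its second start, which says only that these letters are not in those windows. In the windows nearest to the gene starts, 5 of the 6 members held matches, at 7 distinct positions. The windows of Ifit3 and Ifit3b were 94.2% identical over the 274 columns of their best local alignment. A kappa B motif, the element of NF-kappa B, was found in 4.5% of all windows and in none of the members' windows.

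**Figure D1:**
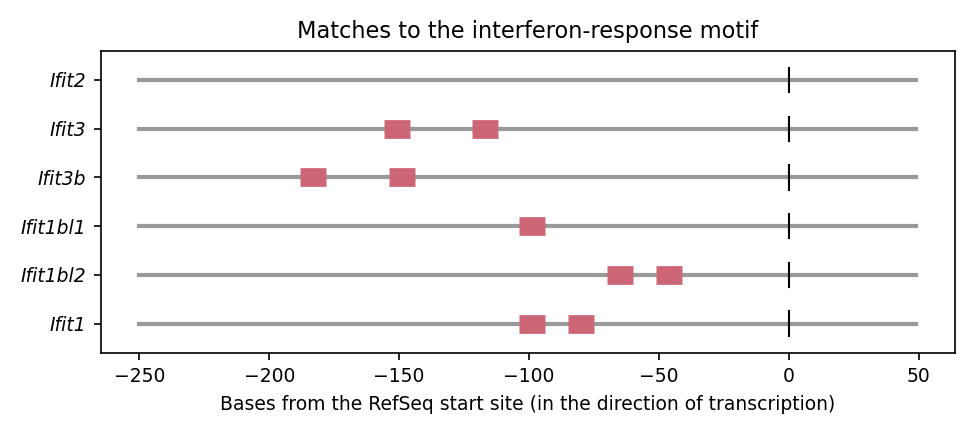
Matches to the ISRE core in the 300-base promoter window of each Ifit gene, with position in bases from the RefSeq start site on the x axis and 1 line per gene. Boxes are matches, and 5 of the 6 genes hold 1 or 2, all upstream of the start, while the line of Ifit2 is empty.

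The libraries held between 16363767 and 17956772 counted reads, and 3 counts corresponded to between 0.161 and 0.19 CPM, the count scaled to a common library size with TMM factors. After the filter on low counts, 12296 genes were tested with edgeR's quasi-likelihood test. As in the methods of the study, a differentially expressed gene (DEG) had an FDR-adjusted P-value under 0.05 and an absolute log2 fold change (log2FC) over 1.5. Of the 14 markers of microglia and macrophages 11 passed the filter, with a summed level of 2060 to 2120 CPM in control libraries and 2260 to 2320 CPM with LPS, whereas Sall1 had no more than 3 counts in any library. The lymphocyte markers Cd3e, Cd79a and Ncr1 were likewise at or under 3 counts. The summed levels of other marker lists were between 23.5 and 25.3 CPM in control libraries against 18.0 to 18.9 CPM with LPS for neurons, 112 to 116 against 97.8 to 104 CPM for astrocytes, 33.5 to 40.0 against 28.3 to 29.5 CPM for oligodendrocytes and 0.17 to 0.467 against 0.792 to 1.16 CPM for endothelium, with Rbfox3, Aqp4, Mog and Cldn5 at or under 3 counts. None of these sums overlapped between the groups. Among single tested genes, 23.7% had every LPS library above every control library. No endothelium marker passed the filter, so that this sum rests on few counts. The part of these sums in the results on the Ifit genes was not tested. The neuron sum was mostly Map2, at 22.5 CPM on average in control cells and 16.9 CPM with LPS. The astrocyte sum was mostly Aldoc (112 against 99.7 CPM) and the oligodendrocyte sum mostly Mbp (36.1 against 28.5 CPM). These genes are named after their values were seen, and their sums mostly give the level of single genes, not of cell types. Control libraries 2 and 3 stood apart in hepatocyte markers, whose sum ranged from 0.175 to 22.5 CPM over the control libraries and from 0.127 to 0.548 CPM with LPS. Without both of these libraries a single control library remained, which was taken to vary like the LPS libraries. Only effect sizes are therefore given. The log2FC was then 7.09 for Ifit1, 4.61 for Ifit2, 7.12 for Ifit3, 7.80 for Ifit3b and 7.45 for Ifit1bl2. In the control library that remained, Ifit3b had 3 counts, Ifit1bl2 had 1 and Ifit1bl1 had 0.

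The whole family was up-regulated in LPS-stimulated N9 microglia. Summed over its members, it took 291, 329 and 312 counts in control libraries 1, 2 and 3 and 13654, 14449 and 12570 in LPS libraries 1, 2 and 3. This was 17.5 ± 1.02 CPM (SD, n = 3) in control cells and 837 ± 62.8 CPM (SD, n = 3) with LPS, a 47.9-fold difference, and the share of all counted reads went from at most 0.00193% to at least 0.0742%. In RNA from a whole culture, more cells that express a gene and more RNA per cell cannot be told apart.

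All 6 members were DEG and higher with LPS, as were 2.4% of all tested genes, and in all 6 every LPS library lay above every control library, as it did for 23.7% of all tested genes. For Ifit3b, Ifit1bl1 and Ifit1bl2 these calls carry no support of their own, since these genes passed the filter only through their LPS libraries. The median log2FC of the 6 members was 6.76, and that of all tested genes was 0.00356. The same genes help to set the family's median and add no support to it. The members that also passed in control libraries were at 4.59 (Ifit2), 7.07 (Ifit1) and 7.21 (Ifit3).

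Ifit2, which in humans and mice has been linked to cell death as well as to antiviral defence, was the member with the most reads before stimulation. Control libraries 1, 2 and 3 held 233, 256 and 249 counts of it, and LPS libraries 1, 2 and 3 held 5291, 5641 and 5251. The LPS libraries lay close together, with a coefficient of variation of 3.69%, and far above the controls. The level rose from 13.8 ± 0.594 CPM to 333 ± 12.3 CPM (SD, n = 3 each), with a log2FC of 4.59 (SE 0.058, edgeR adjusted P = 1.9e-16), the lowest of the family. It ranked 44 among all tested genes by log2FC.

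Ifit1, the cap-binding member, had 38, 43 and 39 counts in control cells and 5162, 5181 and 4326 with LPS. The third LPS library was the lowest of its group, and the groups did not come near each other. Ifit1 rose from 2.25 ± 0.172 CPM to 302 ± 34 CPM (SD, n = 3 each), with a log2FC of 7.07 (SE 0.11, edgeR adjusted P = 1.1e-15) and rank 9.

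Ifit3, the partner that is known in humans to bind and stabilise IFIT1, had 16, 17 and 14 counts in control cells and 2088, 2321 and 1970 with LPS. Its log2FC of 7.21 (SE 0.11, edgeR adjusted P = 1.2e-15) ranked 7, from 0.884 ± 0.114 CPM to 131 ± 10.8 CPM (SD, n = 3 each). Among the 3 members that were counted well in both groups, the log2FC of Ifit3 and Ifit1 differed by less than the sum of their SEs, and that of Ifit2 was lower.

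Ifit3b, a close copy of Ifit3, was almost without reads before stimulation, with 3, 3 and 2 counts in control cells against 595, 740 and 645 with LPS. Pooled over libraries this was 8 against 1980 counts, a ratio of 272 per library size with a 95% exact interval of 138 to 630 that covers counting error only. The fitted log2FC was 8.02 (SE 0.19, edgeR adjusted P = 1.4e-13), which depends on the prior count because the control libraries were at or under 3 counts.

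Ifit1bl1 and Ifit1bl2, the Ifit1-like genes, were the lowest members in LPS-stimulated cells. Ifit1bl1 had 0, 9 and 2 counts in control cells and 324, 350 and 230 with LPS, and 9 of its 11 control counts came from control library 2. Its pooled ratio was 90.2 (95% exact counting interval 50.2 to 181), and its log2FC was 6.45 (SE 0.37, edgeR adjusted P = 3.1e-09), which became 8.19 without control library 2. Ifit1bl2 had 1, 1 and 6 counts in control cells and 194, 216 and 148 with LPS. Its pooled ratio was 76.6 (interval 38.6 to 178), and its log2FC was 6.19 (SE 0.35, edgeR adjusted P = 2.5e-09), which became 7.46 without control library 3. For both genes the size of the change rests on a handful of control reads, while the LPS libraries lay far above them.

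**Figure D2:**
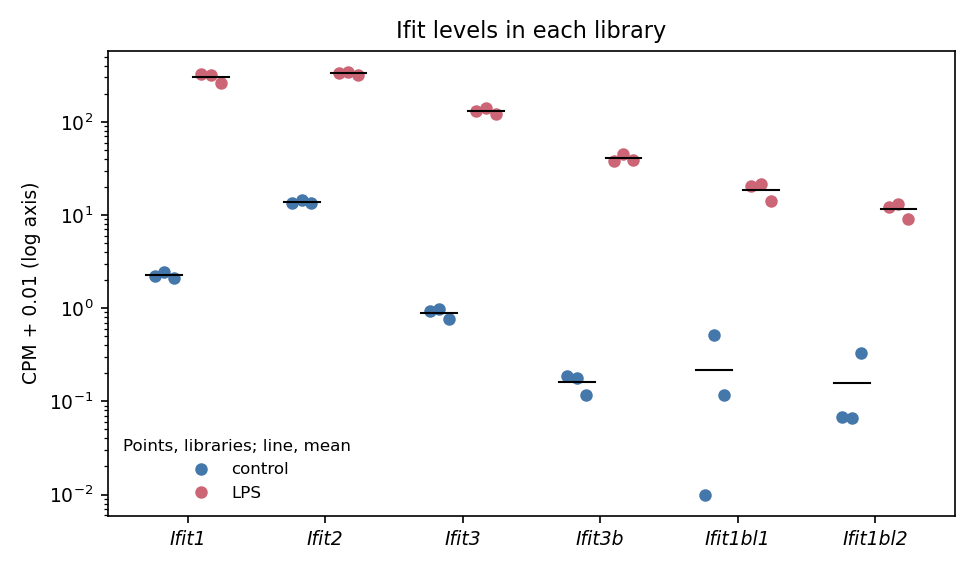
Level of each Ifit gene in each library, as CPM + 0.01 on a log axis, with points for libraries and a line for the mean of the group. For every gene the 3 LPS libraries lie above the 3 control libraries, and the control libraries of Ifit3, Ifit3b, Ifit1bl1 and Ifit1bl2 all lie under 1 CPM.

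Among the LPS libraries, library 2 was the highest for 5 of the 6 members, against 32.6% of all tested genes, the exception being Ifit1, which was highest in library 1. LPS library 3 was the lowest for 5 of the 6, against 35.0% of all tested genes, the exception being Ifit3b, which was lowest in library 1. Among the control libraries, library 2 was the highest for 4 members, against 34.7% of all tested genes, and library 3 the lowest for 4, against 29.1%.

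Reads of near-identical copies can be divided between them or lost by counting, and how multiply mapping reads were treated is not given in the sources used here. The longest transcripts of Ifit3 (1745 bases) and Ifit3b (2000 bases) were 81.2% identical over 2048 aligned columns. Of the 50-base stretches of Ifit3, 51.2% were found unchanged in Ifit3b, and of its 150-base stretches 18.5%. Of the 50-base stretches of Ifit1, 7.06% were found in Ifit1bl2, and Ifit2 shared none with any other member. The division of reads between Ifit3 and Ifit3b is therefore uncertain, but their sum is less so. Summed, the pair had 19, 20 and 16 counts in control cells and 2683, 3061 and 2615 with LPS, with a log2FC of 7.37 (SE 0.11, edgeR adjusted P = 6.8e-16). Ifit1, Ifit1bl1 and Ifit1bl2 summed had 39, 53 and 47 counts against 5680, 5747 and 4704, with a log2FC of 6.99 (SE 0.12, edgeR adjusted P = 1.9e-15).

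The make-up of the family differed between the groups. Levels of different genes are compared here in CPM per kb of the gene length in the deposited table. In control cells Ifit2 was the leading member at 3.52 ± 0.151 CPM per kb, followed by Ifit1 at 0.848 ± 0.0648 and Ifit3 at 0.506 ± 0.0653 (SD, n = 3 each), and each of these lay above the next in every library. Ifit1bl1, Ifit3b and Ifit1bl2 were all under 0.1 CPM per kb on average and overlapped. With LPS the order was Ifit1 at 114 ± 12.8 CPM per kb, Ifit2 at 84.8 ± 3.13, Ifit3 at 75.2 ± 6.21, Ifit3b at 20.4 ± 1.96, Ifit1bl1 at 8.19 ± 1.77 and Ifit1bl2 at 3.41 ± 0.651 (SD, n = 3 each), each above the next in every library. Among all tested genes ranked by level per kb, Ifit1 went from rank 10678 to rank 466, Ifit2 from 8127 to 682 and Ifit3 from 11233 to 784, while Ifit1bl2 reached only 8242.

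As a share of the family's reads per kb, which does not depend on how libraries are scaled, Ifit2 held 70.1%, 67.3% and 70.6% in control cells and 27.0%, 27.1% and 29.3% with LPS. Ifit1 held 16.9%, 16.7% and 16.4% against 39.0%, 36.8% and 35.7%. Ifit3 held 10.8%, 10.1% and 8.94% against 24.0%, 25.1% and 24.7%. The share of Ifit2 was thus lower with LPS and those of Ifit1 and Ifit3 were higher, with no overlap between the groups. The differences were -41.5 percentage points for Ifit2, 20.5 for Ifit1, 14.7 for Ifit3 and 5.19 for Ifit3b, each at an exact permutation P of 0.1 (two-sided, 0.15 adjusted over the 6 members), the smallest that 3 against 3 libraries can give. The control shares of Ifit3b rest on 2 or 3 counts per library, and its division from Ifit3 is uncertain. It passed the filter only through its LPS libraries, so that its P adds no support. The shares of Ifit1bl1 and Ifit1bl2 overlapped between the groups (exact permutation P = 0.4 and 0.8), with differences of 0.97 and 0.229 points. The difference for Ifit1bl1 was 0.126 points without control library 1 and 2.17 points without control library 2.

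**Figure D3:**
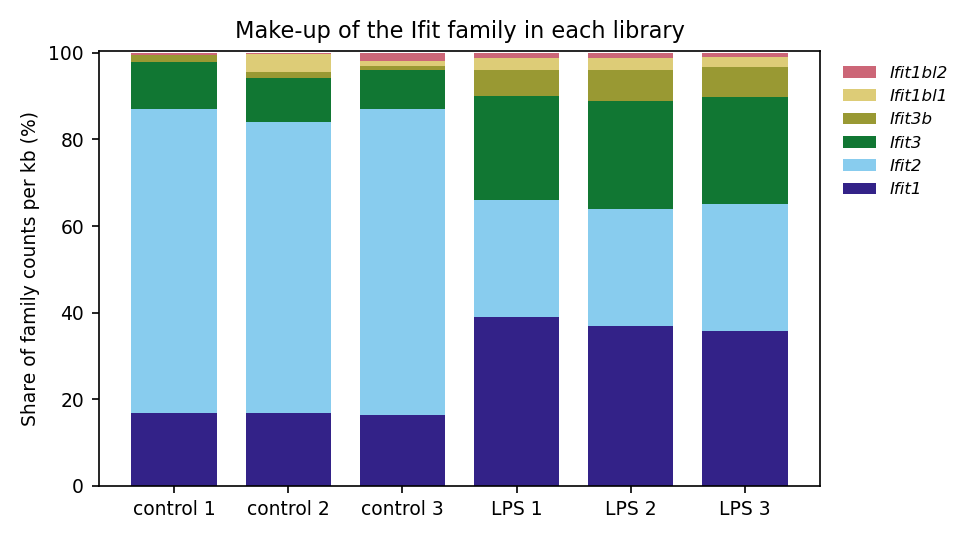
Share of the family's counts per kb held by each Ifit gene (y axis, percent) in each of the 6 libraries (x axis), as stacked bars that sum to 100%. Ifit2 holds between 67.3% and 70.6% of each control bar and between 27.0% and 29.3% of each LPS bar.

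Ratios between members per kb are quotients of these shares. They restate them for pairs of genes and are no second result. Ifit1 per kb was 0.241, 0.248 and 0.232 of Ifit2 in control cells and 1.44, 1.36 and 1.22 of it with LPS, so that per kb Ifit1 lay under Ifit2 in every control library and above it in every LPS library. In counts, not divided by length, Ifit2 stayed above Ifit1 in every LPS library. Ifit3 to Ifit2 went from 0.155, 0.149 and 0.127 to 0.888, 0.926 and 0.844. Ifit3 to Ifit1, in contrast, was 0.641, 0.602 and 0.546 in control cells and 0.616, 0.682 and 0.693 with LPS, and these values overlapped. Over 7 ratios, the exact permutation P was 0.1 for the first pair of ratios (0.233 adjusted) and 0.2 for Ifit3 to Ifit1 (0.35 adjusted). Ifit3b to Ifit3 was 0.147 ± 0.0203 against 0.271 ± 0.0196 (SD, n = 3 each, exact permutation P = 0.1, 0.233 adjusted), but its control values rest on 2 or 3 counts of Ifit3b. For the same reason as with the shares, this P adds no support. With LPS, where both genes were counted well, Ifit1bl1 was 2.47, 2.40 and 2.30 times Ifit1bl2 per kb.

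The pathway from TLR4 over interferon beta to ISGF3 was listed as 17 genes, and the highest log2FC among those tested (3.97) lay under the lowest of the Ifit genes (4.59). Of the 16 that were tested, 4 were DEG and higher with LPS, against 2.4% of all tested genes, 10 were higher at an adjusted P under 0.05 at any size, as were 18.7% of all tested genes, 1 was lower, as were 15.7%, and 5 were not called. The median log2FC of the list was 0.345. The 4 DEG were Irf7, the factor that amplifies the interferon response, Stat2 and Irf9, which belong to ISGF3, and Ikbke, a kinase of Irf3 and Irf7. Irf7 had 176, 154 and 159 counts in control cells and 2243, 2490 and 2241 with LPS (log2FC 3.97, SE 0.073, edgeR adjusted P = 6.4e-15). Stat2 followed at a log2FC of 2.24 (SE 0.088, edgeR adjusted P = 3.6e-11), Irf9 at 2.08 (SE 0.072, 8e-12) and Ikbke at 1.81 (SE 0.061, 5.4e-12).

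Of the genes upstream of ISGF3, interferon beta was at the limit of detection and its receptor was not called. Ifnb1, which encodes interferon beta, was without counts in control cells and had 1, 1 and 0 with LPS, and was not tested, so that its level at 6 h could not be measured at this depth. The receptor chains Ifnar1 (log2FC 0.15, edgeR adjusted P = 0.07) and Ifnar2 (log2FC 0.09, edgeR adjusted P = 0.38) were not called. With a replicate block, with robust dispersion and without LPS library 1, 11 pathway genes in place of 10 were called higher. Irf3, which is switched on by phosphorylation, had 490, 448 and 481 counts against 403, 402 and 452 and a log2FC of -0.04 (edgeR adjusted P = 0.74). The 10 pathway genes called higher were the 4 DEG and Tyk2 (log2FC 0.92), Ticam1 (0.81), Cd14 (0.61), Tbk1 (0.46), Traf3 (0.24) and Jak1 (0.22). Tlr4, the receptor of LPS, was the gene that was lower, with 1557, 1578 and 1572 counts against 933, 970 and 1084 and a log2FC of -0.52 (SE 0.056, edgeR adjusted P = 3.6e-06).

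Other interferon-stimulated antiviral genes were also higher, over a wide range. Of 20 listed, 19 were tested and all 19 were higher with LPS, 16 of them DEG, against 18.7% and 2.4% of all tested genes. The log2FC ranged from 1.12 to 7.40 with a median of 4.45. Mx1, Mx2, Ifi44 and Isg20 passed the filter only through their LPS libraries, so that these 4 had to differ and add no support to the counts or the median. The largest log2FC was that of Rsad2, which encodes viperin, with 134, 129 and 103 counts against 18720, 20008 and 17645 (log2FC 7.40, SE 0.09, edgeR adjusted P = 1.7e-16). Cmpk2, a nucleotide kinase gene that neighbours Rsad2, followed at 6.70 (SE 0.11, edgeR adjusted P = 2.7e-15). Isg15, a ubiquitin-like modifier, was at 6.43 (SE 0.097, 1e-15), and Mx1, a GTPase, at 6.19 (SE 0.3, 5.2e-10) from 5, 2 and 1 control counts. The log2FC of Mx1 became 6.98 without control library 1 and 5.44 with a prior count of 2. The 3 that were higher but under the size of a DEG were Oas1a (1.48), Bst2 (1.22) and Ifitm3 (1.12), named after their values were seen. Zbp1, a sensor of nucleic acids, was not tested, with 0, 1 and 2 counts against 0, 0 and 1. On this list, 1 gene lay above the log2FC of Ifit3 (7.21), and 9 lay above that of Ifit2 (4.59). Among these 9 were Mx1, Mx2, Ifi44 and Isg20, the 4 that passed the filter only through their LPS libraries.

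The listed genes of RNA cap formation and of eIF3 subunits held no DEG, but only 2.4% of all tested genes were DEG and higher. At that share lists this short may well hold none, so that the absence says little about these genes. Of the 5 listed genes of RNA cap formation, edgeR called 0, while it called 34.3% of all tested genes. In edgeR 0 of the 5 genes had an unadjusted P under 0.05, and DESeq2 called 0 of them. Their log2FC lay between -0.18 (Rammet) and 0.50 (Cmtr1, which methylates the ribose of the first transcribed nucleotide), both named after their values were seen. Of 14 eIF3 subunit genes, 3 were higher at an adjusted P under 0.05, a share near the 18.7% of all tested genes, and none was a DEG. These were Eif3j1 at a log2FC of 0.21 (SE 0.056, edgeR adjusted P = 0.009), Eif3g at 0.16 (SE 0.05, 0.02) and Eif3c at 0.13 (SE 0.035, 0.0082), and none of the 3 was called in that list once control library 3 was left out.

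**Figure D4:**
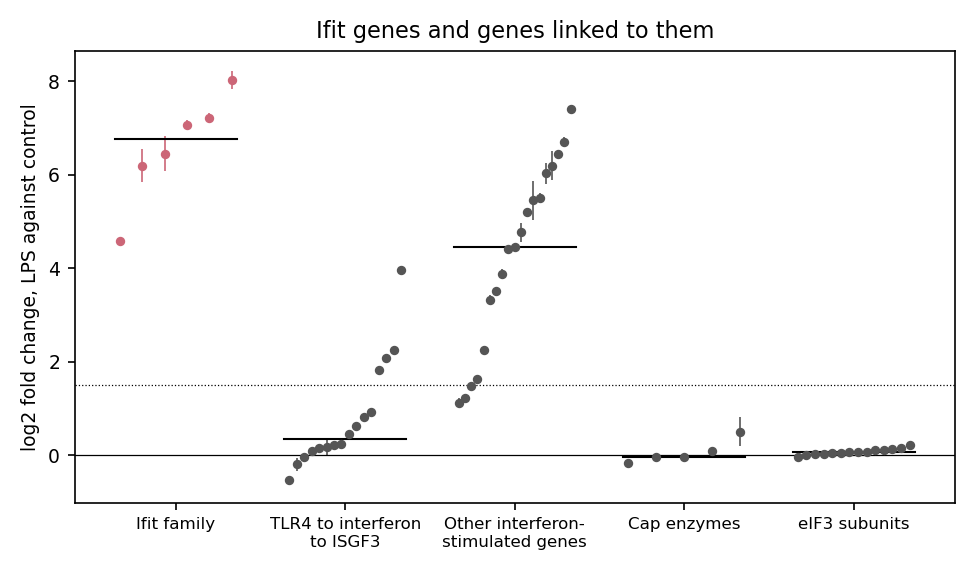
The log2FC of LPS against control (y axis) for the tested Ifit genes and for the tested genes of 4 lists linked to them, each point a gene with its SE and each horizontal line the median of the list. The dotted line marks the log2FC of 1.5 that a DEG had to exceed. All 6 Ifit genes lie above 4.5, while the genes labelled cap enzymes and the eIF3 subunits lie near 0.

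The rise of the Ifit genes was set against the genes that surround them on chromosome 19. Within 500 kb on either side, 7 other genes were tested, of which 4 were higher at an adjusted P under 0.05, against 18.7% of all tested genes, and 1 was lower, against 15.7%. Without control library 3 the number that were higher was 2. The only DEG among them was Fas, which encodes a death receptor and lies more than 200 kb before Ifit2, from 34290659 to 34327770. Its counts were 128, 156 and 168 in control cells and 979, 949 and 900 with LPS, with a log2FC of 2.78 (SE 0.089, edgeR adjusted P = 3.6e-12). Lipa, the lysosomal acid lipase gene next to Ifit2, was at a log2FC of 0.11 (SE 0.038, edgeR adjusted P = 0.036), from 479 ± 2.57 CPM to 517 ± 17.9 CPM (SD, n = 3 each). Stambpl1, a deubiquitinase gene, was at 0.34 (SE 0.056, 2.2e-04) and Lipn, a lipase gene, at 0.43 (SE 0.13, 0.017). On the other side Kif20b, a kinesin gene, was lower at -0.43 (SE 0.05, edgeR adjusted P = 8.1e-06). Pank1, which starts coenzyme A synthesis, was not called at -0.12 (edgeR adjusted P = 0.29), nor was Acta2, the smooth muscle actin gene, at 0.12 (edgeR adjusted P = 0.74). Ch25h, an enzyme gene known to respond to interferon, was not tested, with no control counts and 3, 3 and 1 with LPS, and is named after its values were seen.

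**Figure D5:**
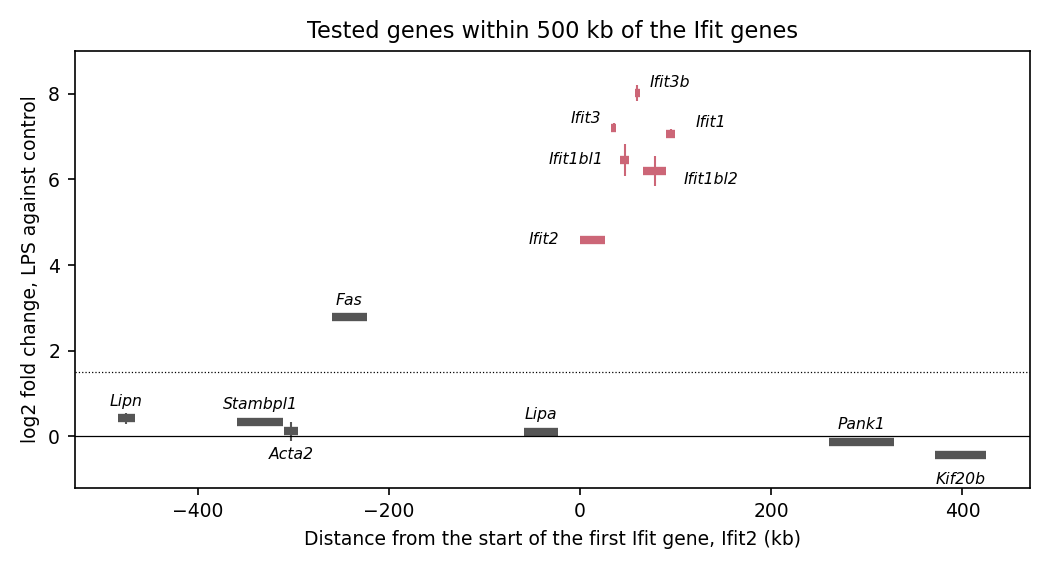
The log2FC of LPS against control (y axis, with SE) of the tested genes within 500 kb of the Ifit genes, drawn as bars over their extent in kb from the start of Ifit2 (x axis), with a dotted line at the log2FC of 1.5 that a DEG had to exceed. The 6 Ifit genes, between 4.59 and 8.02, stand above every neighbour, of which Fas at 2.78 is the highest.

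The genes whose profile over the 6 libraries was nearest to the mean of the Ifit genes, by Euclidean distance of log2 CPM centred on the control mean, were Gbp7 (distance 0.495), Apol9a (0.663), Cxcl2 (0.776), Cmpk2 (0.79) and Isg15 (0.847). The members' own distances from their mean ran from 1.28 for Ifit1 to 2.95 for Ifit2 and the median over all tested genes outside the family was 10.9. The 5 genes were picked as the nearest of all tested genes, so their closeness is a description. Gbp7, a guanylate-binding protein gene, had 14, 12 and 14 counts in control cells and 1076, 1161 and 1056 with LPS, with a log2FC of 6.48 (SE 0.12, edgeR adjusted P = 4.9e-15). Apol9a, an apolipoprotein L gene, had 2, 3 and 4 counts against 243, 334 and 287. Cxcl2, which encodes a chemokine that draws neutrophils, had 23, 22 and 15 counts against 1698, 1837 and 1786, with a log2FC of 6.60 (SE 0.1, edgeR adjusted P = 1.1e-15).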

How the data were processed

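The authors deposited raw read counts per gene for 6 libraries, whole numbers without normalization. Library preparation and sequencing on the Illumina NovaSeq platform, and the upstream bioinformatics, were done by Novogene for the study. The submitters' processing notes name featureCounts version 1.5.0-p3 and mm10. The aligner, the annotation release and the use of strand are not given in the sources used here. A deposited table of the authors' own comparison, with fold changes, p-values and normalized values, was not used.

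Libraries were grouped by their titles. The quasi-likelihood test of edgeR version 4.0.16 (R version 4.3.3) was run with TMM factors, filterByExpr by group at a minimum count of 10, the default prior count and Benjamini-Hochberg adjustment over 12296 genes. Each SE was derived from the log2FC and its F statistic. Shares and ratios were compared with exact permutation tests over libraries (scipy version 1.17.1 under Python version 3.11.15). No 2 libraries of a group were alike within sampling noise. As no molecular identifiers are known to have been used, counting intervals and limits cover counting error only. The fits were tested on simulated data with changes smaller than those of most members, and as many down as up. That test does not cover changes as large as those of most members.

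Promoter windows came from RefSeq on GRCm38.p6, where all 6 members had entries, and transcripts from GENCODE release M21 on GRCm38. Of the 54495 genes shared with that release, 53548 have the same chromosome, start and end in the deposited table. Transcripts and promoters were aligned with Biopython version 1.88, and figures were drawn with matplotlib version 3.10.9.

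The members and lists were chosen with earlier results of these data known, and some listed genes are not reported here or counted in their lists. Named are all members and, of each list, the 4 called genes with the largest changes, the untested genes and the interferon signaling genes Ifnb1, Irf3, Irf7, Irf9, Stat2, Ifnar1 and Ifnar2. All tested protein-coding genes within 500 kb and the 5 genes of most similar profile are also named. Other genes are marked as named after their values were seen, except where a count is spelled out by its genes. Alternatives were a replicate block, summed paralogs, shares of counts, leaving out single libraries, DESeq2 version 1.42.0, glmTreat, robust dispersion, RLE in place of TMM, a higher prior count (2), and either no filter or one at a mean count of 10. Leaving out control libraries 2 and 3 together was added after the data were seen.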

Additional observations from a re-analysis of the deposited data

How the results depend on the processing

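All 6 Ifit genes were called higher with LPS under every alternative that tested them singly and left out at most a single library. DESeq2 and the loss of any single library were among these alternatives. Wherever a filter on low counts was used, the calls of Ifit3b, Ifit1bl1 and Ifit1bl2 carry no support of their own. These genes passed it only through their LPS libraries. Among all tested genes, 295 were higher DEG with all libraries in edgeR and 323 in DESeq2. Without single libraries there were between 301 and 322. With paralogs summed only Ifit2 was fitted singly, and both sums were called. With a prior count of 2, the log2FC fell to 5.44 for Ifit1bl2, 5.85 for Ifit1bl1 and 7.25 for Ifit3b, the members with few control reads. Control and LPS libraries share replicate numbers only as numbers: the correlations of deviations of same-numbered libraries were 0.136, 0.0588 and -0.00415. The fit with the replicate block called 329 DEG against 326 without it, and gave 7.06 for Ifit1, 4.59 for Ifit2, 7.21 for Ifit3, 8.02 for Ifit3b, 6.45 for Ifit1bl1 and 6.18 for Ifit1bl2.

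Other counts moved more, and the cause was not tested. With glmTreat, which tests against a log2FC of 1.5, 183 DEG were called, 181 higher and 2 lower, against 295 higher and 31 lower, and Eif2ak2 (1.62), a kinase that blocks translation, named after its values were seen, was no longer called. glmTreat gives no calls at any size. Without a filter on low counts 91 DEG were lower. When single libraries were left out, the number of lower DEG lay between 38 and 62, the cap and eIF3 genes called between 0 and 4 against 3, and the neighbours that were higher between 2 and 4 against 4, the lowest of these last 2 ranges without control library 3. Oas1a (1.51) became a DEG without LPS library 2. As shares of counts instead of counts per kb, the differences were 23.1 percentage points for Ifit1, -39.4 for Ifit2, 10.6 for Ifit3 and 4.01 for Ifit3b. In these shares Ifit2 (38.8% to 41.8%) stayed above Ifit1 (34.4% to 37.8%) with LPS, whereas per kb Ifit1 (37.2% on average) was above Ifit2 (27.8%). The share of Ifit1bl2, which overlapped between groups, had differences between -0.0585 and 0.781 points when single libraries were left out, and changed direction without control library 1 (-0.0363 points) or 2 (-0.0585 points). Depth limits Ifit3b, Ifit1bl1 and Ifit1bl2 in control cells, and Ifnb1 in all libraries.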
